A study of Drosophila melanogaster with 6 samples.

Results

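The genes described here are 10 protein-coding genes of the Drosophila melanogaster Y chromosome with roles in or links to male fertility: kl-2, kl-3, kl-5, ORY, WDY, CCY, Ppr-Y, PRY, ARY and FDY. They were chosen by symbol and by no cut-off on a measured value, but with earlier results of these data known. They are 10 of the 113 Y-linked genes and of the 17807 genes in the count files. Polyadenylated RNA of whole testes was sequenced with a directional kit from 150 pairs of testes per library. In the cbc knockdown (bamGal4>cbcKD, stock BL 77426, 2 libraries) and the Pcf11 knockdown (bamGal4>PCf11KD, VDRC 103710, 2 libraries) the bamGal4 driver, which is active in late spermatogonia and early spermatocytes, was combined with a hairpin against 1 subunit of a cleavage factor that acts on the 3′ ends of transcripts. The control (2 libraries) carried bamGal4 with no hairpin named. All 3 genotypes came from crosses held for 3 days at 25 °C, with the progeny then moved to 29 °C. The labels give no age, and do not say which parent or stock the Y chromosome came from, so a difference between Y chromosomes and an effect of a hairpin cannot be told apart.

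Counts per gene were analysed for 5 of the 6 libraries, namely both cbc knockdown libraries, Pcf11 knockdown library 2 and both controls. For Pcf11 knockdown library 1, reads over splice junctions were used instead. Sense counts summed to 18954932 and 20510200 in the cbc knockdown, 79053532 in the Pcf11 knockdown, and 76132580 and 73600622 in the control. The cbc libraries were therefore shallower than all others, and their titles follow another naming style than those of the other count libraries, so depth or batch cannot be told apart from cbc genotype. Whether the libraries of a genotype are separate cultures is not stated, and p-values here cover the spread among the libraries sequenced, possibly technical in part. The targets checked the labels: cbc had 4.04 and 3.20 CPM in the cbc knockdown, against 52.4 and 56.9 CPM in the control, and Pcf11 had 24.2 CPM in the Pcf11 knockdown, against 49.9 and 54.7 CPM in the control. CPM are counts per 1000000 assigned reads, scaled by TMM, a normalization that centres the bulk of genes.

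The Y chromosome of Drosophila carries few genes, and nearly all of those known are used in the male germ line. Several are spread over very large stretches because their introns hold long arrays of repeats, and in primary spermatocytes kl-5, kl-3 and ORY unfold into the threads known as Y-loops. These transcripts are made in spermatocytes, must be copied across repeats and spliced, and their proteins are used later to build the sperm tail or to finish sperm maturation.

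In the BDGP6 annotation, 7 of the 10 genes had an intron of 20 kb or more. kl-5 (FBgn0267433, Y:22250-137486, minus strand) had 16 introns, the longest of 53833 bases. kl-3 (FBgn0267432, Y:336381-563165, plus strand) had 15 introns, the longest of 120259 bases. kl-2 (FBgn0001313, Y:573088-664173, plus strand) had 11 introns, the longest of 39011 bases. These 3 genes encode heavy chains of axonemal dynein, the motor that bends the sperm tail, and had the longest exonic sequence of the 10: 13680 bases in kl-5, 13882 in kl-3 and 13386 in kl-2. ORY (FBgn0046323, Y:3561745-3618339, plus strand), named for its relation to occludin, had 7 introns, the longest of 48321 bases. WDY (FBgn0267449, Y:2273422-2487777, plus strand), a WD40 repeat protein, had 5 introns, the longest of 137947 bases. Ppr-Y (FBgn0046697, Y:1636574-1884846, plus strand) had the longest intron of all 10 genes, 150611 bases, for an exonic length of 1710 bases. PRY (FBgn0267489, Y:146092-192020, minus strand), a polycystin-related protein, had 2 introns, the longest of 31977 bases. The 3 genes without such an intron were CCY (FBgn0267592, Y:3649996-3666928, plus strand), a coiled-coil protein with a longest intron of 10671 bases, and the compact genes ARY (FBgn0058064, Y:702430-704048, plus strand), related to aldehyde reductases, with a longest intron of 113 bases, and FDY (FBgn0265047, Y:3022289-3024024, plus strand), a young copy of the autosomal gene vig2, with a longest intron of 471 bases.

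Per kilobase of exon, ARY and FDY stood far above the other 8 genes in every group. ARY had 43.4 ± 1.93 CPM per kb in the cbc knockdown (SD, n = 2), 58.2 CPM per kb in the 1 Pcf11 knockdown library and 31.1 ± 8.57 CPM per kb in the control (SD, n = 2). FDY had 37.7 ± 2.93 CPM per kb in the cbc knockdown, 21.7 CPM per kb in the Pcf11 knockdown and 35.4 ± 2.33 CPM per kb in the control (SD, n = 2 where an SD is given). In the control the next levels were 6.57 ± 1.71 CPM per kb for kl-5, 5.78 ± 2.19 for Ppr-Y and 4.04 ± 1.25 for ORY, where the libraries of Ppr-Y overlapped those of both others and those of kl-5 lay above those of ORY. kl-3 (2.70 ± 0.90), kl-2 (2.55 ± 0.84) and CCY (2.51 ± 0.95) followed with libraries that overlapped each other, those of kl-3 and CCY also reaching into the range of ORY, and PRY (1.56 ± 0.15) and WDY (1.53 ± 0.22) were lowest, again overlapping. The order of the lower 8 differed in the cbc knockdown, with PRY at 2.88 ± 0.17, Ppr-Y at 2.87 ± 0.04, kl-5 at 2.70 ± 0.06 and CCY at 2.63 ± 0.19 CPM per kb, and WDY lowest at 0.760 ± 0.08 (SD, n = 2).

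**Figure D1:**
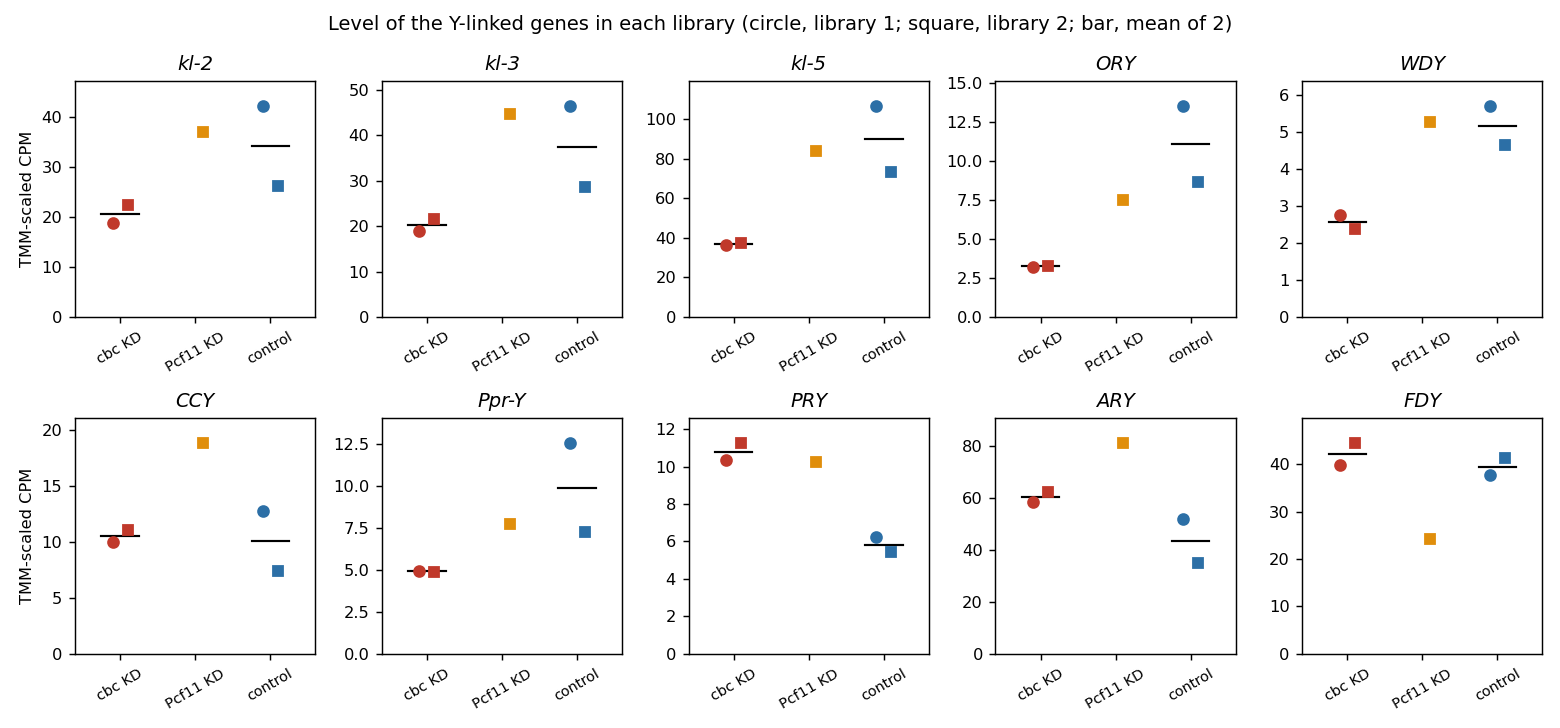
Level of each of the 10 Y-linked genes in each count library, in TMM-scaled CPM (vertical axis, from 0 and scaled per gene); groups run from cbc knockdown over Pcf11 knockdown to control, circles are library 1, squares library 2, and bars are means of 2. For 6 genes both cbc knockdown libraries lie below both controls, PRY and ARY lie above the controls in both knockdowns, and FDY is lowest in the Pcf11 knockdown at 24.2 CPM.

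In the cbc knockdown, all 3 Y-linked dynein heavy chain genes fell, and so did ORY, WDY and Ppr-Y, while PRY and ARY rose. Of the 10 genes, 6 passed as lower and 2 as higher at an adjusted p of 0.05 (edgeR's quasi-likelihood test, Benjamini-Hochberg over 13960 genes), and CCY and FDY did not pass. The background was high: 74.1% of all tested genes passed in this comparison, 37.8% as lower and 36.3% as higher. The median log2 fold change was -0.81 over the 10 genes and -0.02 over all genes tested. All 10 genes passed the filter on low counts.

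kl-5 had 36.4 and 37.6 CPM in the cbc knockdown, against 106 and 73.3 CPM in the control. Both knockdown libraries were below both controls, and the knockdown libraries differed little from each other while the controls were far apart. Its log2 fold change was -1.28 ± 0.14 (SE, adjusted p = 7.7e-06). kl-3 had 19.0 and 21.5 CPM in the cbc knockdown, against 46.4 and 28.7 CPM in the control, a log2 fold change of -0.89 ± 0.18 (adjusted p = 9.1e-04). The groups did not overlap, and control 2 was the nearer to the knockdown. kl-2 had 18.9 and 22.4 CPM in the cbc knockdown, against 42.2 and 26.2 CPM in the control, with a log2 fold change of -0.72 ± 0.18 (adjusted p = 0.00385). Its gap between groups was the narrowest of these 3 dynein genes, and in DESeq2 the same fold change had an adjusted p of 0.0699.

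ORY had the largest fall of the 10 genes, with 3.22 and 3.28 CPM in the cbc knockdown, against 13.5 and 8.66 CPM in the control. These levels rest on 71 and 77 reads in the cbc libraries, against 973 and 635 reads in the deeper controls. The groups were well apart, and the log2 fold change was -1.77 ± 0.21 (adjusted p = 1.4e-05). WDY, the gene with the fewest reads, had 2.77 and 2.39 CPM in the cbc knockdown, against 5.70 and 4.65 CPM in the control. That was 61 and 56 reads against 411 and 341 reads, and the log2 fold change was -1.01 ± 0.18 (adjusted p = 3.3e-04). WDY was the gene among the 6 that fell whose controls lay closest together. Ppr-Y had 4.95 and 4.86 CPM in the cbc knockdown, against 12.5 and 7.24 CPM in the control, with a log2 fold change of -1.01 ± 0.23 (adjusted p = 0.00181). For all 6 genes both cbc libraries were below both controls, an order that 44.6% of tested genes also showed.

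PRY moved the other way, although its annotated intron of 31977 bases is close in length to that of kl-2. It had 10.3 and 11.3 CPM in the cbc knockdown, against 6.24 and 5.43 CPM in the control, a log2 fold change of 0.89 ± 0.13 (adjusted p = 8.3e-05). ARY had 58.5 and 62.3 CPM in the cbc knockdown, against 51.7 and 34.8 CPM in the control, a log2 fold change of 0.48 ± 0.15 (adjusted p = 0.0108). Both genes were higher in both cbc libraries than in both controls, an order shared by 43.1% of tested genes. The ARY call rested on control 2: without it, the log2 fold change was 0.21 (adjusted p = 0.0928).

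CCY had 9.98 and 11.1 CPM in the cbc knockdown, against 12.7 and 7.36 CPM in the control. The cbc libraries lay between the controls, and the log2 fold change was 0.07 ± 0.21, with a 95% interval of -0.39 to 0.53 (adjusted p = 0.778). That value followed whichever control was left out: 0.51 without control 1, where it passed (adjusted p = 0.00811), and -0.28 without control 2. FDY had 39.8 and 44.5 CPM in the cbc knockdown, against 37.7 and 41.3 CPM in the control, with overlapping groups and a log2 fold change of 0.09 ± 0.09 (95% interval -0.11 to 0.30, adjusted p = 0.379). Its relative vig2, from which reads may be shared, had 195 and 191 CPM in the cbc knockdown and 183 and 201 CPM in the control (log2 fold change 0.01, adjusted p = 0.954).

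**Figure D2:**
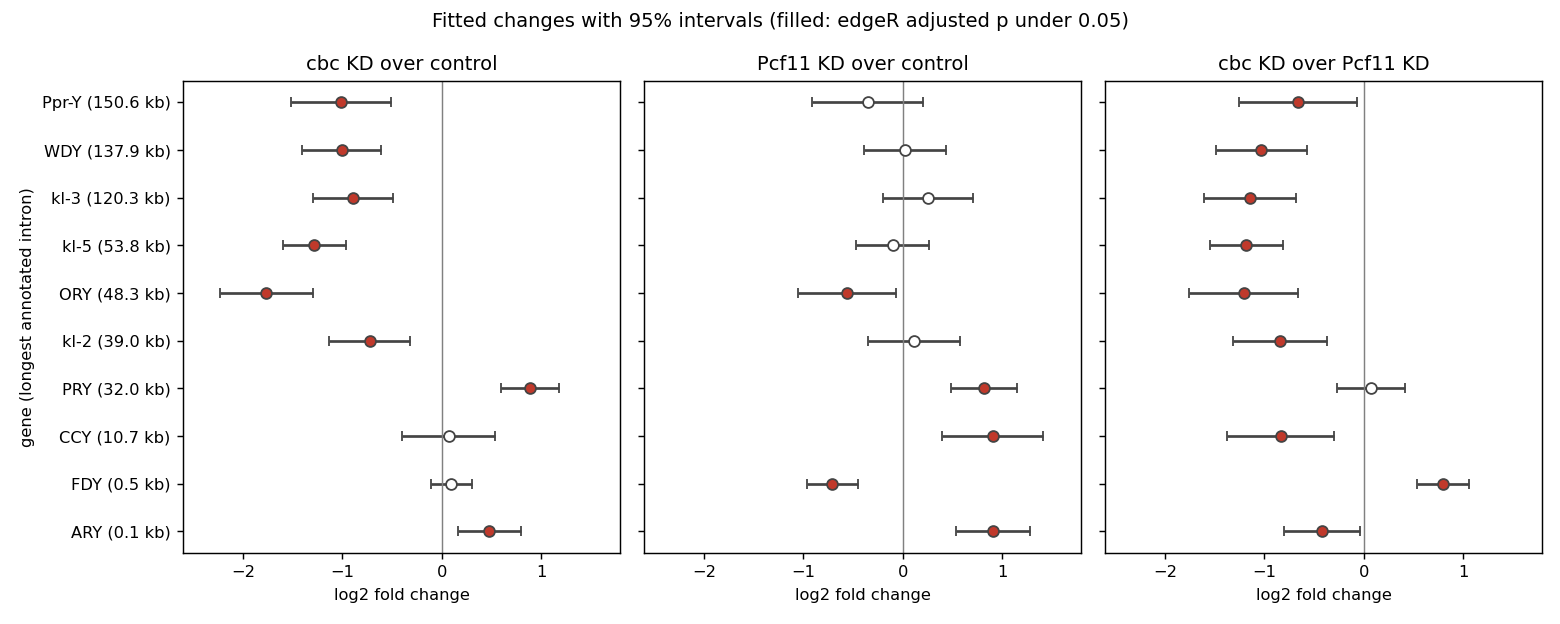
Log2 fold change (horizontal axis) of each gene with its 95% interval in the 3 comparisons, ordered by the longest annotated intron in kilobases, longest at the top; filled circles passed at an adjusted p of 0.05 in edgeR. In cbc knockdown over control the 6 genes from Ppr-Y down to kl-2 lie left of 0, and PRY lies right of 0 at 0.89.

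In the Pcf11 knockdown the dynein heavy chain genes did not pass the test in either direction, CCY, ARY and PRY rose, and FDY and ORY fell. Here 3 of the 10 genes passed as higher and 2 as lower, beside 69.0% of all tested genes, 32.6% as higher and 36.4% as lower. The median log2 fold change was 0.07 over the 10 genes and -0.06 over all genes. With a single Pcf11 knockdown count library, the test assumes that it varies as the other groups did, and both knockdowns were compared with the same control libraries.

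kl-5 had 83.8 CPM in the Pcf11 knockdown, against 106 and 73.3 CPM in the control, kl-3 had 44.8 CPM against 46.4 and 28.7 CPM, and kl-2 had 37.0 CPM against 42.2 and 26.2 CPM. All 3 lay between the controls. The log2 fold changes were -0.10 ± 0.17 for kl-5 (95% interval -0.47 to 0.27, adjusted p = 0.613), 0.26 ± 0.21 for kl-3 (-0.20 to 0.71, adjusted p = 0.288) and 0.12 ± 0.21 for kl-2 (-0.35 to 0.58, adjusted p = 0.641). These values depended on the controls: without control 1, kl-3 (0.63) and kl-2 (0.48) passed as higher, and without control 2, kl-5 passed as lower at -0.37.

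ORY had 7.52 CPM in the Pcf11 knockdown, against 13.5 and 8.66 CPM in the control, a log2 fold change of -0.56 ± 0.23 (adjusted p = 0.0443). It was below both controls, as 48.8% of tested genes were, and the call was lost without control 1, where the log2 fold change was -0.22 (adjusted p = 0.375). It was also lost with RLE size factors, DESeq2's scaling, at -0.41 (adjusted p = 0.124), and in DESeq2 (adjusted p = 0.219). WDY had 5.27 CPM in the Pcf11 knockdown, against 5.70 and 4.65 CPM in the control, within the range of the controls (log2 fold change 0.03 ± 0.19, 95% interval -0.39 to 0.44, adjusted p = 0.910). Ppr-Y had 7.74 CPM in the Pcf11 knockdown, against 12.5 and 7.24 CPM in the control, also within their range (log2 fold change -0.35 ± 0.25, adjusted p = 0.235). Without control 2 it passed as lower at -0.72.

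CCY had 18.8 CPM in the Pcf11 knockdown, against 12.7 and 7.36 CPM in the control, a log2 fold change of 0.91 ± 0.23 (adjusted p = 0.00450). ARY had 81.0 CPM in the Pcf11 knockdown, against 51.7 and 34.8 CPM in the control, a log2 fold change of 0.90 ± 0.17 (adjusted p = 5.2e-04). PRY had 10.3 CPM in the Pcf11 knockdown, against 6.24 and 5.43 CPM in the control, a log2 fold change of 0.81 ± 0.15 (adjusted p = 4.9e-04). All 3 were above both controls, an order seen for 44.8% of tested genes. FDY had 24.2 CPM in the Pcf11 knockdown, against 37.7 and 41.3 CPM in the control, a log2 fold change of -0.71 ± 0.12 (adjusted p = 2.0e-04). vig2 fell alongside it, with 91.8 CPM in the Pcf11 knockdown, against 183 and 201 CPM in the control (log2 fold change -1.06, adjusted p = 2.9e-06). Because the sequences of FDY and vig2 are close, how far reads of one were counted for the other was not tested, and the FDY value is uncertain for that reason.

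Set against each other, the cbc knockdown was lower than the Pcf11 knockdown for 8 of the 10 genes, among them all 3 dynein heavy chain genes, ORY, WDY and CCY. FDY was higher, and PRY did not pass. The background was 71.9% of tested genes, 29.7% as lower and 42.2% as higher, and the median log2 fold change was -0.84 over the 10 genes and 0.27 over all genes. The log2 fold change was -1.21 ± 0.25 for ORY (adjusted p = 0.00104), -1.18 ± 0.17 for kl-5 (6.8e-05), -1.14 ± 0.21 for kl-3 (5.1e-04), -1.03 ± 0.21 for WDY (9.2e-04) and -0.84 ± 0.22 for kl-2 (0.00452). Both cbc libraries were below the Pcf11 library for these 8 genes, an order that 38.3% of tested genes showed, and above it for FDY and PRY, as for 55.0% of tested genes. For CCY the cbc libraries had 9.98 and 11.1 CPM and the Pcf11 library 18.8 CPM. FDY, at 39.8 and 44.5 CPM in the cbc knockdown and 24.2 CPM in the Pcf11 knockdown, had a log2 fold change of 0.80. PRY, at 10.3 and 11.3 CPM in the cbc knockdown and 10.3 CPM in the Pcf11 knockdown, had a log2 fold change of 0.07 ± 0.16 (95% interval -0.27 to 0.42, adjusted p = 0.688). The calls for Ppr-Y (-0.66, adjusted p = 0.0465) and ARY (-0.42, adjusted p = 0.0461) lay close to the threshold. With library totals in place of TMM, which moved the median of all genes by 0.53, kl-2, CCY and Ppr-Y did not pass and ARY turned to 0.11.

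Calls in the cbc knockdown against the control split by intron length, with PRY as the exception. Of the 7 genes with an intron of 20 kb or more, 6 passed as lower and 1, PRY, as higher, and of the 3 without one, none passed as lower and ARY passed as higher. With so few genes this is a description, and intron length goes along with gene identity. In the Pcf11 knockdown the same 7 genes gave 1 lower call, 1 higher call and 5 that did not pass. Between the 2 knockdowns the split did not hold. There 6 of the 7 passed as lower in the cbc knockdown, and of the 3 others CCY and ARY passed as lower and FDY as higher. Other genes with introns as long did not show the same values. Among the 111 other tested genes with a longest intron of 50 kb or more, the median log2 fold change in the cbc knockdown was 0.21 (quartiles -0.39 and 0.80), and 31.5% passed as lower and 42.3% as higher. The 4 Y-linked genes of that class (Ppr-Y, WDY, kl-3 and kl-5) had a median of -1.01, each below the lower quartile of the others. Among 362 other genes with 20 to 50 kb the median was 0.43 (quartiles -0.33 and 1.14), and ORY and kl-2 lay below the lower quartile while PRY lay inside the quartiles. In the Pcf11 knockdown the 4 Y-linked genes with 50 kb or more had a median of -0.04 and the 111 others one of -0.32. These classes were not matched for chromosome or for the cells that express the genes.

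**Figure D3:**
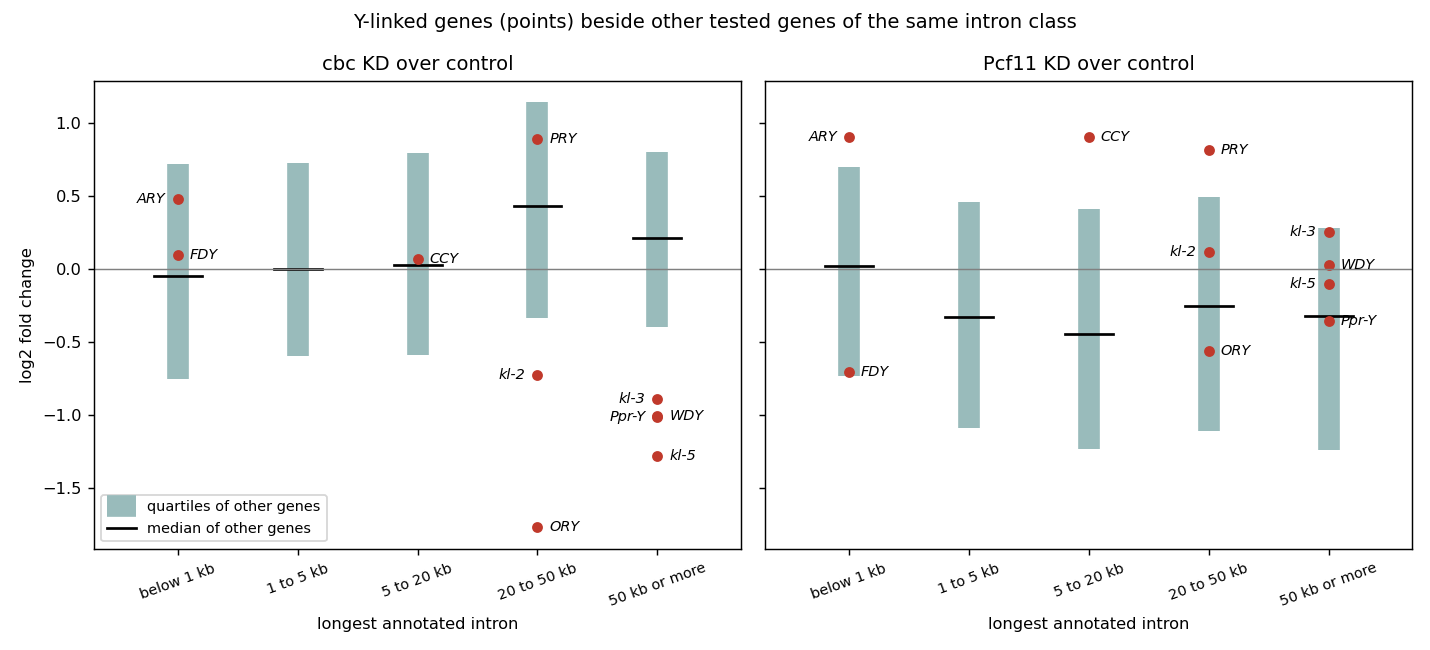
Log2 fold change (vertical axis) of the Y-linked genes (points) by class of longest annotated intron (horizontal axis), beside the quartiles (bars) and median (lines) of all other tested genes in the class. In the cbc knockdown kl-3, Ppr-Y, WDY and kl-5 lie below the lower quartile of -0.39 of the 111 other genes with 50 kb or more, while in the Pcf11 knockdown they lie between the quartiles.

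The 2 control libraries differed in these genes far more than in most others. The log2 ratio of control 1 over control 2, with 0.5 CPM added, was above the 95th percentile of all tested genes (0.29) for 7 of the 10: Ppr-Y and CCY at 0.75, kl-3 and kl-2 at 0.68, ORY at 0.61, ARY at 0.56 and kl-5 at 0.53. By construction 5% of genes lie beyond that percentile. 75 of 13960 genes, or 0.537%, had a ratio at or above that of kl-5. These 7 were among them with no other gene annotated on the Y, beside 13 genes of the mitochondrial genome. The rest were annotated on other chromosomes, on rDNA or on an unplaced scaffold, and included dj, 1 of the 8 spermatid genes listed below, at 0.58. WDY (0.27), PRY (0.19) and FDY (-0.13) lay within the 5th to 95th percentile. Between the 2 cbc knockdown libraries none of the 10 genes lay outside that range. Each comparison with the control therefore leans on which control is used, and the values without either one are given above where a call changed. The labels do not tell whether the 2 controls share a Y chromosome, an age or a dissection day, and none of these was tested.

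**Figure D4:**
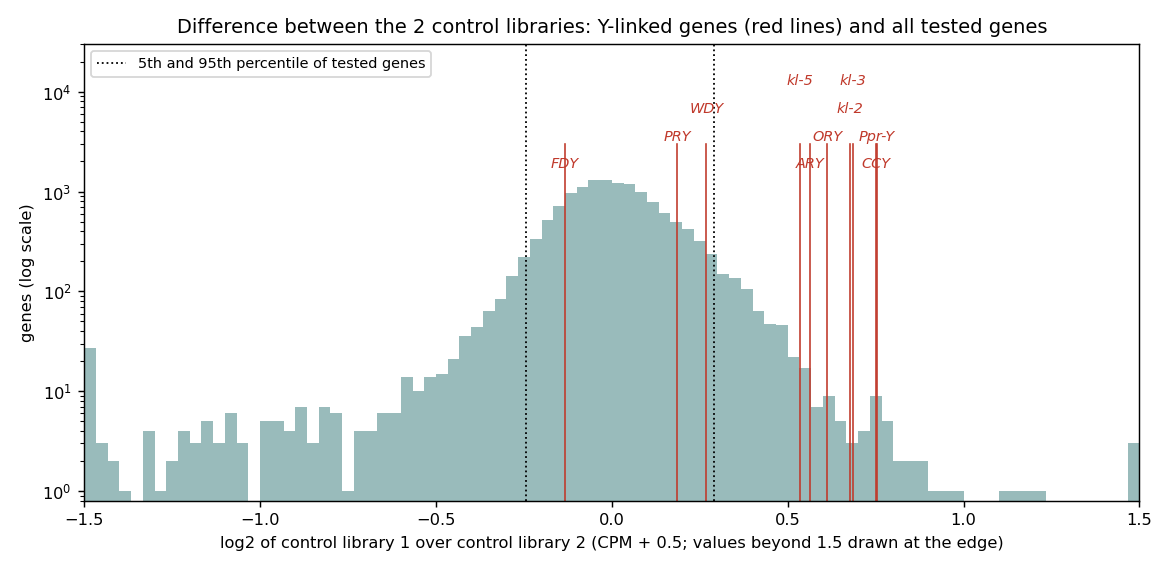
Number of tested genes (vertical axis, log scale) by the log2 ratio of control library 1 over control library 2 (horizontal axis), with the 10 Y-linked genes as red lines and the 5th and 95th percentiles of tested genes as dotted lines. Lines for 7 of the genes lie between 0.53 and 0.75, beyond the 95th percentile of 0.29.

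Cell type markers also differed between the genotypes, and the lists did not follow a common pattern. The summed level of 8 spermatid genes, among them Mst84Dc and Mst84Dd, was 4472 and 4300 CPM in the cbc knockdown, 11244 CPM in the Pcf11 knockdown, and 13566 and 11963 CPM in the control. All 8 fell in the cbc knockdown, where 36.3% of all tested genes passed as higher and 37.8% as lower. In the Pcf11 knockdown 2 of the 8 rose and 1 fell, beside 32.6% and 36.4% of all tested genes. The summed level of 12 spermatocyte genes was 533 and 545 CPM in the cbc knockdown, 611 CPM in the Pcf11 knockdown, and 626 and 658 CPM in the control, with 1 higher and 5 lower in the cbc knockdown. The median log2 fold change of these 12 genes was -0.14 in the cbc knockdown and -0.51 in the Pcf11 knockdown. The Pcf11 sum understates that median fall, since mia alone had 172 CPM there, against 88.8 and 87.1 CPM in the control. All 6 muscle sheath genes listed fell in the cbc knockdown (summed level 465 and 372 CPM, against 713 and 718 CPM in the control). All 6 also fell in the Pcf11 knockdown, at 251 CPM. Their median log2 fold change was -0.98 in the cbc knockdown and -1.49 in the Pcf11 knockdown. The part of these marker changes in the Y-linked changes was not tested. In bulk tissue fewer cells of a type and less RNA per cell cannot be told apart. Of the marker genes, the fat body genes Yp1 (3 and 0 reads) and Yp2 (1 and 0 reads) were at 0 in control 2, and no other was at 0 in any library.

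Genes linked to the Y-linked ones by function did not move as one group. Of the 8 dynein heavy chain genes listed from other chromosomes, 6 rose and 2 fell in the cbc knockdown (median log2 fold change 0.48), and 5 rose and none fell in the Pcf11 knockdown (median 0.50). Of all tested genes, 36.3% rose and 37.8% fell in the cbc knockdown, and 32.6% rose and 36.4% fell in the Pcf11 knockdown. Dhc36C, one of the abundant ones, had 116 and 150.04 CPM in the cbc knockdown, against 259 and 213 CPM in the control (log2 fold change -0.83, adjusted p = 8.0e-05), and 412 CPM in the Pcf11 knockdown (0.80, adjusted p = 3.9e-04). Dhc16F had 342 CPM in the Pcf11 knockdown, against 93.1 and 85.5 CPM in the control (1.94, adjusted p = 2.1e-07). Dhc93AB, a minor one, rose by 2.61 in the cbc knockdown at 2.59 and 3.16 CPM, against 0.37 and 0.56 CPM in the control. CG3339 had 21.6 and 26.3 CPM in the cbc knockdown, against 9.99 and 10.3 CPM in the control (1.24, adjusted p = 2.3e-06). The list also holds btv, the heavy chain of the dynein that carries material inside cilia, which rose by 1.58 at 7.22 and 9.85 CPM, against 2.78 and 2.95 CPM in the control.

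Factors that put axonemal dynein together were mixed too. Of 9 listed genes found, 2 rose and 5 fell in the cbc knockdown, and 5 rose and 2 fell in the Pcf11 knockdown. Of all tested genes, 74.1% and 69.0% passed either way in these comparisons. Zmynd10, a dynein assembly factor, fell in both, with 96.3 and 88.9 CPM in the cbc knockdown and 98.8 CPM in the Pcf11 knockdown, against 286 and 309 CPM in the control (log2 fold changes -1.68 and -1.59). CCDC151, a protein that docks dynein arms, rose in both: it had 3.27 and 4.01 CPM in the cbc knockdown, 2.32 CPM in the Pcf11 knockdown, and 0.14 and 0.12 CPM in the control. Among the listed genes, nop5 is a nucleolar protein and the place of Ppi1 is uncertain.

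Of 4 genes for RNA-binding proteins that act on the Y-loop transcripts, 2 rose and 1 fell in the cbc knockdown, and 1 rose and 3 fell in the Pcf11 knockdown, beside 74.1% and 69.0% of all tested genes that passed either way. blanks, needed for transcription of the loop genes, had 246 and 226 CPM in the cbc knockdown, 87.4 CPM in the Pcf11 knockdown, and 307 and 311 CPM in the control, log2 fold changes of -0.39 (adjusted p = 8.0e-04) and -1.82 (adjusted p = 8.9e-08). heph had 443.6 and 436 CPM in the cbc knockdown, 234 CPM in the Pcf11 knockdown, and 356 and 362 CPM in the control (0.29 and -0.62). bol had 924 and 958 CPM in the cbc knockdown, 2031 CPM in the Pcf11 knockdown, and 807 and 696 CPM in the control (0.32 and 1.43). Rb97D had 171 and 164 CPM in the cbc knockdown, 96.3 CPM in the Pcf11 knockdown, and 166 and 168 CPM in the control (0.00 and -0.80). Rb97D did not pass in the cbc knockdown (adjusted p = 0.982). CG13125, the autosomal relative of Ppr-Y, also fell in the cbc knockdown, with 6.13 and 7.21 CPM, against 36.1 and 31.9 CPM in the control (-2.35, adjusted p = 1.2e-08), and had 45.4 CPM in the Pcf11 knockdown (0.42, adjusted p = 0.00952).

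Of 23 other tested Y-linked genes, 7 rose and 7 fell in the cbc knockdown (median log2 fold change 0.26), beside 36.3% and 37.8% of all tested genes, and whether they differ from the 10 genes was not tested. In the Pcf11 knockdown 10 rose and 3 fell (median 0.68), beside 32.6% and 36.4% of all tested genes. Pp1-Y2, a testis protein phosphatase, had 36.6 and 41.4 CPM in the cbc knockdown, 59.0 CPM in the Pcf11 knockdown, and 36.2 and 28.8 CPM in the control (0.26, adjusted p = 0.0556, and 0.86, adjusted p = 1.1e-04). Pp1-Y1, a relative of it, had 0 and 0 reads in the cbc knockdown, 765 reads in the Pcf11 knockdown library, and 1 and 2 reads in the control. The level in the Pcf11 library was 588 times that of the control (95% interval 200.5 to 2859, counting error only) and at least 184-fold higher than in the cbc knockdown, with a floor of 3 counts over that group. It passed the filter in 1 library alone and was not tested, and as a Y-linked gene seen in 1 library it cannot be told apart from a difference between Y chromosomes.

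By distance between log2 CPM profiles over the 5 libraries, the genes most like the mean of kl-5, kl-3 and ORY among 11938 genes were lncRNA:CR45303 (0.196), lncRNA:CR44256 (0.243), the spermatid gene Mst84Da (0.259), lncRNA:CR45720 (0.267) and lncRNA:CR43306 (0.269). The measure rests on 5 libraries of 3 genotypes, and the control libraries enter every profile. kl-5 itself was at 0.07 (rank 1), ORY at 0.66 (rank 417) and kl-3 at 0.68 (rank 450), since ORY fell further and kl-3 less than their mean. The genes named here are thus close to the profile of kl-5, and many genes lay nearer to the mean than ORY and kl-3 did.

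Reads over splice junctions in Pcf11 knockdown library 1 covered nearly all annotated introns of these genes, giant ones included. This is 1 library without a control file of the same kind, so nothing here compares knockdown with control. The file held 109699 junctions with 10381354 uniquely mapped reads, 94.1% of them in annotated introns. Of the 74 annotated introns of the 10 genes, 73 were listed and 72 had uniquely mapped reads, 3009 in all. In kl-5, 2 giant introns of 20 kb or more had a mean of 38.0 reads per junction (95% Poisson interval 29.9 to 47.6) and the other 14 a mean of 35.2 (32.2 to 38.5). The longest, of 53833 bases, had 42 reads, on ends listed 2 bases from the annotated ones. In kl-3 the 2 giant introns had a mean of 20 (14.3 to 27.2) and the other 13 a mean of 22.1 (19.6 to 24.8), and the intron of ORY with 48321 bases had 21 reads, against a mean of 15.2 (12.2 to 18.6) over the other 6. In kl-2 the giant introns had a mean of 14.5 (9.71 to 20.8) and the others 19.1 (16.4 to 22.2). In these 4 genes the intervals of giant and other introns overlapped.

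Ppr-Y stood apart, with a mean of 7.50 reads (4.20 to 12.4) over its 2 giant introns and 28.7 (22.9 to 35.4) over the other 3. Its reads per junction were 37, 36, 13, 10 and 5 along the transcript from its 5′ end, and its last intron also had 19 multiply mapped reads, so uniquely mapped reads understate that junction. Over the 7 genes with a giant intron, giant introns had 0.787 times (95% interval 0.683 to 0.902) the uniquely mapped reads that the other junctions of the same genes would give. With multiply mapped reads included, the ratio was 0.820 (0.720 to 0.930). Leaving out 1 gene at a time moved the ratio of uniquely mapped reads between 0.679 (0.568 to 0.807) without kl-5 and 0.934 (0.806 to 1.08) without Ppr-Y. These intervals cover counting error only. In WDY, intron 4, of 36185 bases, had 0 uniquely mapped and 17 multiply mapped reads, and its giant introns had a mean of 8.33 (5.39 to 12.3) against 11.5 (7.29 to 17.3) over the other 2. Among genes without giant introns, ARY had a mean of 245 reads per junction, CCY 36 and FDY 82.0, the last with 238 of its 246 reads on 1 junction.

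PRY did not match its annotated model. Its annotated intron of 31977 bases was the 1 intron of the 74 that was not listed, and the other had 2 reads. Within the gene's span 31 junctions outside the annotation carried 121 uniquely mapped reads. Those with most reads were Y:158708-158774 (67 bases, 19 reads), Y:159678-191210 (31533 bases, 10 reads) and Y:188767-190142 (1376 bases, 10 reads). The length classes and the per-kb level given for PRY above rest on the annotated model.

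**Figure D5:**
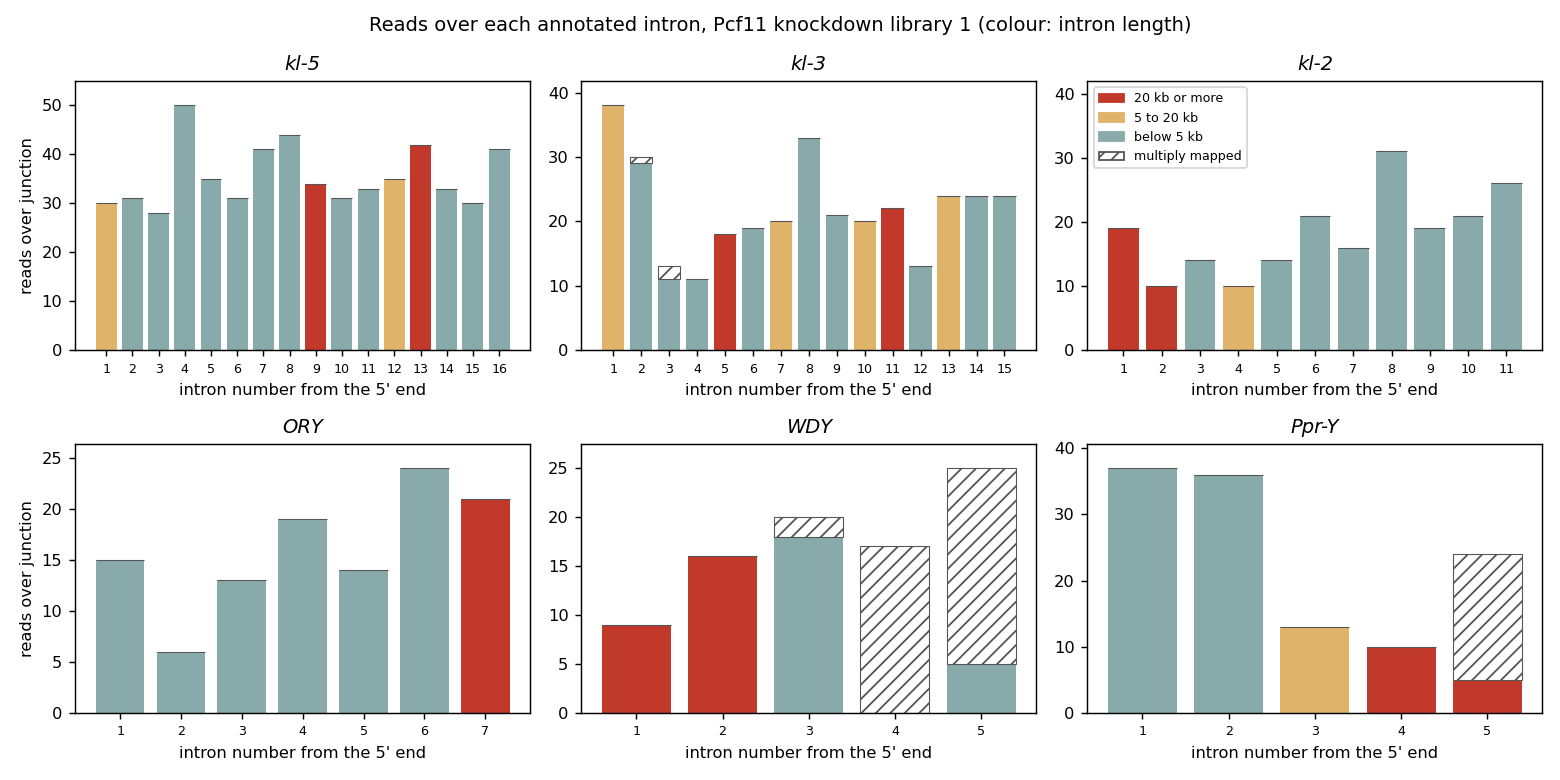
Reads (vertical axis) over each annotated intron of 6 genes, numbered from the 5′ end (horizontal axis), in Pcf11 knockdown library 1; colours give intron length and hatching marks multiply mapped reads. Giant introns of kl-5 carry 34 and 42 reads, among 28 to 50 for all of its junctions. In Ppr-Y the uniquely mapped reads fall to 13, 10 and 5 over its 3 last introns, and the last also carries 19 multiply mapped reads, stacked above.

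Because the libraries were directional, reads on the opposite strand of each gene could be read as well. kl-3, kl-5, ORY, WDY, CCY, Ppr-Y, PRY and ARY had under 1% of their stranded reads antisense when the 5 libraries were pooled, from 0.030% in kl-5 to 0.848% in PRY, and FDY had 1.09%. kl-2 had 1.94%, the highest of the 10. Over all genes the share was higher, with 3.52% and 3.63% in the cbc knockdown, 3.16% in the Pcf11 knockdown, and 3.10% and 3.08% in the control. Sense and antisense reads were counted apart, so the antisense reads did not enter the levels of kl-2 given above.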

How the data were processed

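Polyadenylated RNA of whole testes was sequenced in 6 libraries. Per the file layout, the deposited values were raw read counts per gene by strand for 5 libraries and, for Pcf11 knockdown library 1, read counts per splice junction. Tools named in the submitters' processing notes are STAR, Trim Galore, deepTools and SAMtools, with BDGP6 and dm6 as builds, and their versions are not given in the sources used. The sense column was used. Reads assigned to no gene made up 2.62% and 2.86% of those counted in the cbc knockdown, 1.53% in the Pcf11 knockdown, and 1.36% and 1.35% in the control, and stayed out of library sizes. Of 17807 gene identifiers, 17710 were found in a BDGP6 annotation, whose release may differ from the authors'. Counts of close copies are uncertain, because only uniquely mapped reads were counted.

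The 13960 genes that reached 10 counts in 2 or more libraries were tested with edgeR 4.0.16 in R 4.3.3 (TMM, quasi-likelihood test, 1 fit of all 5 libraries on genotype alone, 2 residual degrees of freedom, 2-sided, Benjamini-Hochberg adjusted). Intervals of fold changes come from the same fit at 95%. Junctions were matched to annotated introns within 2 bases. The genes named are the 10 members, the 2 targets, the autosomal relatives, up to 3 passing genes of each list and comparison, taken among those with the largest changes, and the 5 nearest profiles. Pp1-Y1, Ppi1, Yp1, Yp2 and dj were named after their values were seen. The members and lists were chosen with earlier results of these data known. Alternatives tried were RLE size factors, library totals, no filter, unstranded counts, DESeq2 1.42.0, the compared libraries alone, a replicate block and each library left out. No DNA or protein sequence of these genes is printed here.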

Additional observations from a re-analysis of the deposited data

Results flagged for a closer look

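Reads on the strand opposite to kl-2 were singled out because they lie outside the measurements compared above and were higher than in the controls. They made up 3.32% of stranded kl-2 reads in Pcf11 knockdown library 2, or 80 of 2413 (95% exact binomial interval 2.64 to 4.11), against 1.46% (1.07 to 1.95) and 1.18% (0.752 to 1.77) in the control. Those of the cbc knockdown were 1.65% (0.668 to 3.38) and 1.498% (0.649 to 2.93). The Pcf11 interval did not overlap those of the controls and did overlap those of the shallower cbc libraries, and these intervals cover counting error only. Pcf11 knockdown library 1 held 3 spliced junctions on the minus strand within kl-2, with 12 uniquely mapped reads, 7 of them at Y:657387-657657 and 4 at Y:657066-657126. With 1 count library of this genotype the difference was not tested. Over all genes the antisense share was 3.16% in Pcf11 knockdown library 2, 3.10% and 3.08% in the control, and 3.52% and 3.63% in the cbc knockdown. The kl-2 share was thus near the level of all genes in Pcf11 knockdown library 2 and below it in the control and the cbc knockdown.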

How the results depend on the processing

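In the cbc knockdown against the control, the 6 genes called lower stayed below 0 with any library left out, but their sizes moved. Values ranged from -2.06 to -1.42 for ORY, -1.54 to -0.99 for kl-5 and -1.16 to -0.86 for WDY. They ranged from -1.37 to -0.57 for Ppr-Y, -1.21 to -0.51 for kl-3 and -1.04 to -0.35 for kl-2. PRY ranged from 0.78 to 0.99 and ARY from 0.21 to 0.79. DESeq2 with all 5 libraries gave 5 lower calls, without kl-2. CCY turned to -0.0042 without the filter and ranged from -0.28 to 0.51 with a library left out, and FDY passed at 0.34 with library totals. In the Pcf11 knockdown against the control, lower calls numbered 1 with RLE size factors, with the replicate block and in DESeq2, and 4 with library totals. With a library left out, higher calls ranged from 3 to 5 and lower calls from 1 to 4. kl-5 turned to 0.048 under RLE size factors and DESeq2 and to 0.054 with the block. With library totals kl-2 turned to -0.16, kl-3 to -0.021 and WDY to -0.26, and WDY to -0.023 with unstranded counts. With a library left out, kl-5 ranged from -0.37 to 0.18, kl-2 from -0.21 to 0.48, kl-3 from -0.072 to 0.63, WDY from -0.14 to 0.16 and Ppr-Y from -0.72 to 0.080. In the cbc against the Pcf11 knockdown, library totals gave 2 higher and 4 lower calls and turned ARY to 0.11, PRY turned to -0.070 with RLE size factors and DESeq2 and to -0.11 with the compared libraries alone, and with a library left out 1 higher and 7 to 8 lower calls were made. Exact matching of junction ends, an alternative chosen after seeing the data, gave a giant-intron ratio of 0.626, because the 42 reads on the longest kl-5 intron then match no annotated intron. The cause of the other changes was not tested.

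The replicate numbers were not shown to pair the libraries: the replicate differences of the cbc knockdown and the control correlated at r = -0.09 across 13960 genes. With the block, kl-3 passed as higher in the Pcf11 knockdown at 0.44 (adjusted p = 0.0208) and ORY did not pass at -0.33. Library totals moved the median of all genes by 0.25 in the cbc knockdown and by -0.29 in the Pcf11 knockdown, and RLE size factors by 0.15 in the Pcf11 knockdown and by -0.14 between knockdowns. Called genes split into 5074 higher and 5270 lower with TMM and 6373 and 3946 with library totals in the cbc knockdown, 4555 and 5075 with TMM, 5283 and 4435 with RLE and 3279 and 6467 with library totals in the Pcf11 knockdown, and 5890 and 4153 with TMM, 5029 and 4633 with RLE and 8514 and 2452 with library totals between knockdowns. WDY and ORY, with 56 to 77 reads in the cbc libraries, are limited by depth.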

Other observations

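Other cell types than those of the germ line also differed between these testes. The summed level of 6 cyst and hub genes, which mark the somatic cells around the germ cells, was 107 and 94.4 CPM in the cbc knockdown, 92.3 CPM in the Pcf11 knockdown, and 192 and 193 CPM in the control. Of the 6, 4 fell in the cbc knockdown and 3 in the Pcf11 knockdown. For this and the lists below, 36.3% of all tested genes rose and 37.8% fell in the cbc knockdown. In the Pcf11 knockdown 32.6% of all tested genes rose and 36.4% fell. Muscle sheath genes had a summed level of 251 CPM in the Pcf11 knockdown, and 6 of 6 fell. Fat body genes had 33.2 and 42.1 CPM in the cbc knockdown, 22.9 CPM in the Pcf11 knockdown, and 4.704 and 5.19 CPM in the control, and 4 of 4 tested rose in each knockdown. Accessory gland genes had 243 and 205 CPM in the cbc knockdown, 66.2 CPM in the Pcf11 knockdown, and 56.3 and 164 CPM in the control, so the 2 controls differed in this tissue as well, and 3 of 4 rose in the cbc knockdown. Among 4 spermatogonial genes, 1 was called higher and 1 lower in the cbc knockdown, with a summed level of 148 and 150.1 CPM, against 123 and 132 CPM in the control. In the Pcf11 knockdown, at 208 CPM, 1 rose and 3 fell, and the sum was carried by bgcn, with 195 CPM, against 86.5 and 91.7 CPM in the control. The germ line gene vas, at 5.58 CPM in the Pcf11 knockdown, against 19.2 and 20.7 CPM in the control, and nanos, at 3.52 CPM, against 10.9 and 10.7 CPM in the control, were among the 3 that fell.

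Pcf11 itself rose in the cbc knockdown, with 102 and 97.8 CPM, against 49.9 and 54.7 CPM in the control (log2 fold change 0.93, adjusted p = 1.1e-06).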
